A study of Mus musculus with 4 samples.

Results

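A set of 10 genes of Wnt signalling was followed in the lungs of mice given bleomycin or PBS through the nose, over 10 days by the labels. The mice were wild type, of the C57BL/6 strain and 6 to 8 weeks old. The set holds 5 Wnt ligands (Wnt2, Wnt4, Wnt5a, Wnt7b and Wnt11), 2 genes that beta-catenin signalling commonly induces (Axin2 and Lef1) and 3 secreted antagonists (Sfrp1, Sfrp2 and Dkk2). The genes were taken by symbol, and all 10 of 10 were found among the 17691 genes of the deposited table. The table holds 4 libraries of whole lung, 2 from bleomycin-treated mice and 2 from PBS-treated mice. Bleomycin, a drug that cuts DNA, injures the lung and leads to fibrosis in mice, and PBS is the buffer given in its place. The design text names more replicates per group than were analysed here, and nothing in the labels says whether each library is a separate animal, so p-values speak of the spread between libraries, which may be technical.

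Wnt proteins are lipid-modified secreted ligands that bind Frizzled receptors together with the co-receptors Lrp5 and Lrp6. In the canonical branch this stabilises beta-catenin, which enters the nucleus and acts with TCF/LEF factors on target genes, among them Axin2, a brake on the pathway. Other branches run through receptors such as Ror1 and Ror2 and act on cell shape and polarity. In lung, Wnt ligands from mesenchyme and epithelium guide branching in the embryo and the alveolar epithelium in the adult, and Wnt signalling is studied widely in lung fibrosis.

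Judged from low values, which move in steps of 1 fragment, the bleomycin libraries held about 17200000 and 17800000 fragments and the PBS libraries about 17000000 and 17100000. The lung markers Sftpc and Ager were abundant, at 7913 FPKM or more and 1883 FPKM or more in every library. FPKM scales fragments to transcript length and to the library's total, so levels of different genes can be set side by side. The groups were set apart by sex-linked transcripts. The Y-linked gene Ddx3y, looked at with earlier results known, was at 0.01 and 0.02 FPKM with bleomycin and 17.63 and 15.21 FPKM with PBS, so sex and treatment cannot be told apart in these libraries. Transcripts of 7 hepatocyte markers summed to 6.63 and 3.78 FPKM with bleomycin and 62.8 and 59.5 FPKM with PBS, and their part in the results was not tested.

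In the bleomycin libraries Wnt5a, Wnt7b, Sfrp1 and Dkk2 rose, Wnt2 fell, and Wnt4, Wnt11, Axin2, Lef1 and Sfrp2 did not pass (limma, threshold of 0.05 on the adjusted p). Thus 4 of 10 members rose and 1 fell. Of all 12986 genes tested, 8.59% rose and 7.69% fell. The members were chosen with earlier results of these data known, so these shares do not test for an excess. The median log2 fold change was 0.10 over the members and -0.024 over all genes tested. All 10 members reached the filter of a mean of 1 FPKM over the 4 libraries. Dkk2 did so only through the bleomycin libraries. In 8 of 10 members the groups did not overlap, a separation shown by 66.5% of all genes tested. Both bleomycin libraries lay above both PBS libraries in 5 members, as in 31.5% of all genes, and below them in 3 members, as in 35% of all genes. No exact permutation test of a single gene can go below p = 0.333 with 2 libraries against 2. All 5 calls were lost without either PBS library, where limma called 0 genes of any kind. At an unadjusted p under 0.05, 4 members were then higher and 2 lower without PBS replicate 1, and 4 higher and 1 lower without PBS replicate 2. Without the filter on low values only Wnt7b remained below the threshold, and the other 4 had adjusted p of 0.0522 to 0.067.

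**Figure D1:**
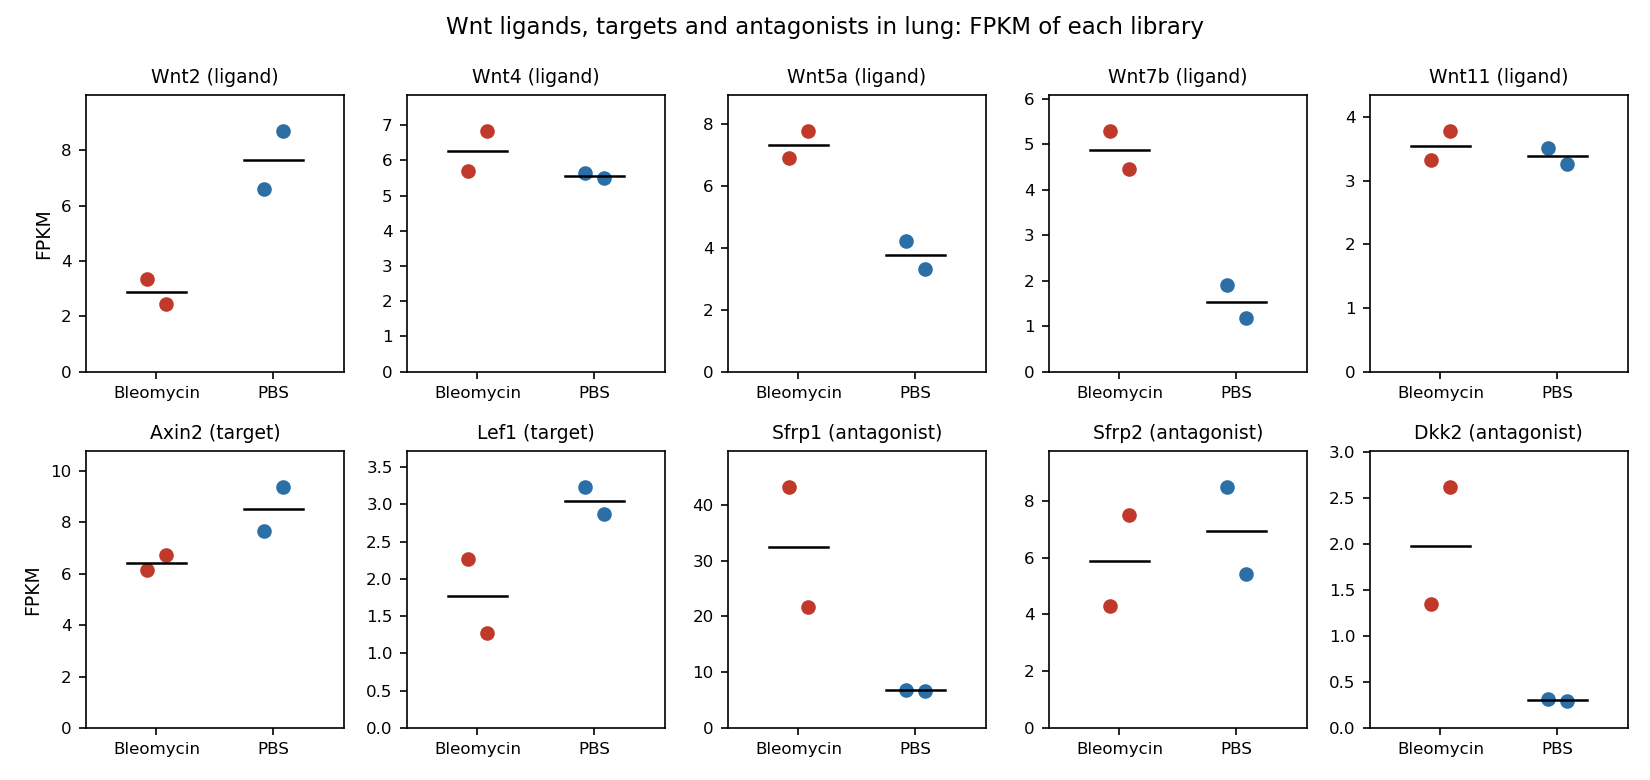
FPKM (vertical axes, each from 0) of the 10 Wnt genes in each library, with bleomycin on the left and PBS on the right of each panel; points are libraries and bars are means of 2. Sfrp1 stood at 43.12 and 21.71 FPKM with bleomycin against 6.76 and 6.66 FPKM with PBS, while the groups overlapped for Wnt11 and Sfrp2.

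Start-site windows are shown for members whose levels the results turn on and for which RefSeq (GRCm38.p6) gave one. These are Wnt2, the ligand that fell, Dkk2, an antagonist that rose, and Axin2, the feedback target. Wnt11 is added as the one member with a TCF/LEF word in the windows at hand. Each window runs from 250 bases before to 50 after a transcript start, written 5′ to 3′ on the gene's strand. Capitals mark a match to CTTTGAT or CTTTGAA on either strand, the core that TCF/LEF factors prefer; the words share their first 6 letters and matches may overlap.
Wnt2, chr6:18030396-18030695, - strand: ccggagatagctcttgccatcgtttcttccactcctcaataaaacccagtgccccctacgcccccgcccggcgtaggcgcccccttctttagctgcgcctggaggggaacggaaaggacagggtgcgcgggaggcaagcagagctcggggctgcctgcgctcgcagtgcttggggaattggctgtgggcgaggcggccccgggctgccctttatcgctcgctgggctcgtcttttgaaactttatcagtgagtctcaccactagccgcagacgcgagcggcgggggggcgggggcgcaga
Dkk2, chr3:132085042-132085341, + strand: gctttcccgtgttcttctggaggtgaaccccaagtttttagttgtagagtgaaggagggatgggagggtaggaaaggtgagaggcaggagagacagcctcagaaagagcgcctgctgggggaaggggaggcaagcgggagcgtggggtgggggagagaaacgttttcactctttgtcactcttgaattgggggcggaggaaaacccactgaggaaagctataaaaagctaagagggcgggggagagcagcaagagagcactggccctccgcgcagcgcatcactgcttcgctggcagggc
Axin2, chr11:108920099-108920398, + strand: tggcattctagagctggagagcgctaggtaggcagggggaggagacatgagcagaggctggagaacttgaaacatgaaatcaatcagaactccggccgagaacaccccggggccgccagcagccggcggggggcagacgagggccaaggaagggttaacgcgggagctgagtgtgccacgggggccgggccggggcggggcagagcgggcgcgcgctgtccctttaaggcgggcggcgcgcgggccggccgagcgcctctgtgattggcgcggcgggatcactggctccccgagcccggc
Wnt11, chr7:98834862-98835161, + strand: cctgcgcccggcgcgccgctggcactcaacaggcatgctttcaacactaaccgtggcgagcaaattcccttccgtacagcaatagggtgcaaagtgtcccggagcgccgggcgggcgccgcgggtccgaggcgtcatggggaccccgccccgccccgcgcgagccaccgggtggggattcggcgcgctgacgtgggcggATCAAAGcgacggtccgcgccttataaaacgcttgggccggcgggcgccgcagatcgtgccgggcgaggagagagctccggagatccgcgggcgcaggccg

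Windows were at hand for 7 of the 10 members, 11 windows in all, since Lef1 and Wnt11 have several starts. Sfrp1, Wnt5a and Wnt7b had no entry. The word was found in 1 of these 11 windows, as ATCAAAG at position -51 from the Wnt11 start, and in 8.65% of all 32851 windows of the same length. The Wnt2, Dkk2 and Axin2 windows held none, nor did any of the windows of Lef1. A match is a string of letters, not a measured binding site. The other Wnt11 window held no match. Wnt11 was also the member with the smallest fitted change, but a relation between the word and the changes was not tested.

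Among the ligands, Wnt2 fell. Wnt2 is a canonical ligand of lung mesenchyme that, with Wnt2b, is needed to specify the lung in the mouse embryo. Its gene (gene 22413, GRCm38.p6 chromosome 6, 17985474 to 18032772) was at 3.35 and 2.44 FPKM with bleomycin and 6.6 and 8.69 FPKM with PBS. Both bleomycin libraries lay well below both PBS libraries. The means were 2.9 ± 0.643 FPKM with bleomycin and 7.64 ± 1.48 FPKM with PBS (SD, n = 2 per group, as for all means here), and limma put the log2 fold change at -1.15 ± 0.19 (SE, as for all fold changes here) with an adjusted p = 0.0236. An estimated 130 and 98 fragments lay behind the bleomycin values and 253 and 335 behind the PBS values, and the 95% exact Poisson intervals of the bleomycin libraries ended at 3.98 and 2.98 FPKM, below the lowest bound of the PBS libraries, 5.81 FPKM. Such intervals cover counting error only.

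Markers of alveolar fibroblasts, cells of the lung mesenchyme, were lower in the same libraries. Of 8 markers 0 rose and 7 fell, with a median log2 fold change of -1.30, and their levels summed to 777 and 559 FPKM with bleomycin and 3263 and 3809 FPKM with PBS. Inmt was the most abundant of them in every library and made up most of the PBS sums. It was at 314 and 168 FPKM with bleomycin and 2328 and 2936 FPKM with PBS. None of the 8 was at 0 in both libraries of a group. Their part in the Wnt2 result was not tested, and in whole tissue fewer cells of a type and less RNA per cell cannot be told apart.

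Wnt5a moved the other way. It encodes the best-studied ligand of the non-canonical branch, which signals through Ror receptors. Wnt5a (gene 22418, chromosome 14, 28504543 to 28527448) was at 6.89 and 7.77 FPKM with bleomycin and 4.23 and 3.3 FPKM with PBS. The groups did not overlap, and the gap between them exceeded the spread within either. The means were 7.33 ± 0.622 FPKM with bleomycin and 3.77 ± 0.658 FPKM with PBS, a log2 fold change of 0.81 ± 0.14 (adjusted p = 0.0274 by limma).

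Set against Wnt2 within each library, Wnt5a was 2.06 and 3.18 times as abundant with bleomycin and 0.641 and 0.38 times as abundant with PBS. Wnt5a was thus the more abundant of the pair in both bleomycin libraries and Wnt2 in both PBS libraries. This ratio was chosen after its values were seen and rests on the same measurements as the separate results.

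Wnt7b rose as well. It encodes a ligand made by lung epithelium, which in the mouse embryo drives growth of epithelium and mesenchyme. Wnt7b (gene 22422, chromosome 15, 85535437 to 85581821) was at 5.29 and 4.45 FPKM with bleomycin and 1.9 and 1.18 FPKM with PBS. Both bleomycin libraries lay above both PBS libraries by more than the spread within a group. The means were 4.87 ± 0.594 FPKM with bleomycin and 1.54 ± 0.509 FPKM with PBS, a log2 fold change of 1.22 ± 0.19 (adjusted p = 0.021 by limma). Markers of alveolar type I cells did not rise together, with 1 of 8 higher and 3 lower (median log2 fold change -0.43), and of 8 alveolar type II markers 1 rose and 0 fell (median 0.014). The airway markers had 0 of 5 tested higher and 3 lower. The part of these cell types in the Wnt7b result was not tested.

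Wnt4 and Wnt11 did not pass. Wnt4 (gene 22417, chromosome 4, 137277635 to 137299501), a ligand used in kidney and reproductive tract development, was at 5.71 and 6.83 FPKM with bleomycin and 5.63 and 5.49 FPKM with PBS. The bleomycin libraries were both higher, but the lower of them exceeded the nearest PBS library by less than counting error. Its log2 fold change was 0.14, with a 95% interval of -0.17 to 0.46 (adjusted p = 0.435 by limma).

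Wnt11 (gene 22411, chromosome 7, 98835084 to 98854747), a ligand of the non-canonical branch that acts on cell movement in embryos, was at 3.32 and 3.78 FPKM with bleomycin and 3.51 and 3.26 FPKM with PBS. The groups overlapped. Its log2 fold change was 0.052, with a 95% interval of -0.26 to 0.36 (adjusted p = 0.786 by limma).

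**Figure D2:**
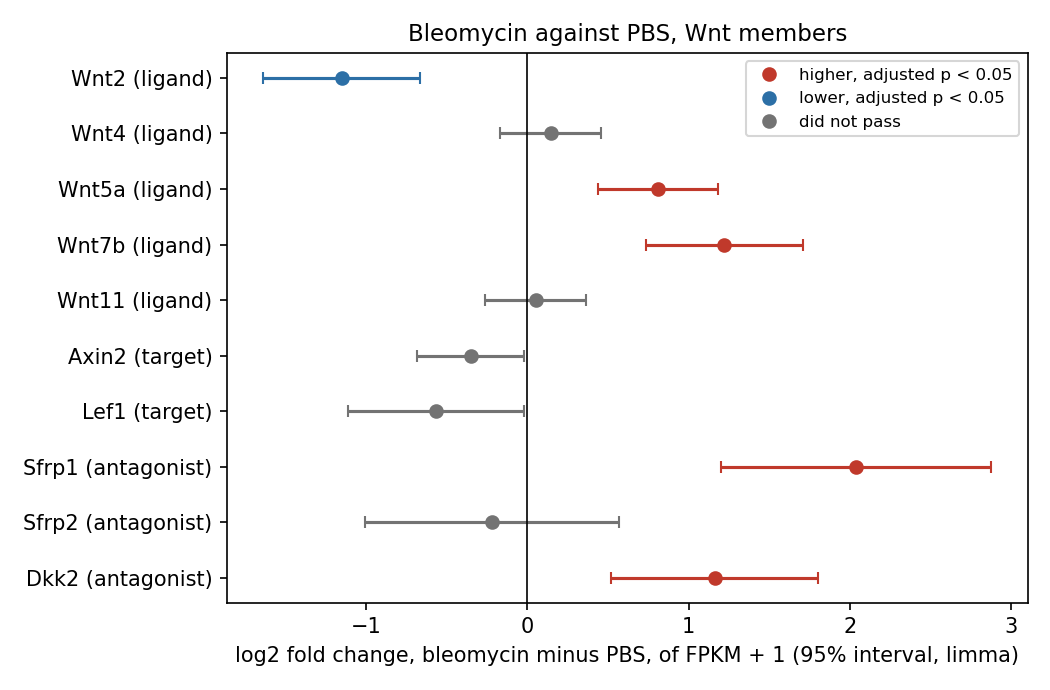
Log2 fold change of FPKM + 1, bleomycin minus PBS (horizontal axis), for the 10 members in order of role, with 95% intervals from limma. Sfrp1 lies farthest to the right at 2.04 and Wnt2 farthest to the left at -1.15; the intervals of Wnt4, Wnt11 and Sfrp2 cross 0, and those of Axin2 and Lef1 end just below it without passing after adjustment.

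The ligands measured together showed no common direction. Of the 19 Wnt ligand genes asked for, 18 were in the table and 11 reached the filter. Of these 2 rose, 2 fell and 7 did not pass. Besides the members, Wnt10b, a canonical ligand, fell to 2.19 ± 0.82 FPKM with bleomycin, against 5.19 ± 0.0707 FPKM with PBS (log2 fold change -0.98 ± 0.20, adjusted p = 0.0393 by limma).

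The 18 ligand genes summed to 46.4 and 65.8 FPKM with bleomycin and 50.5 and 47.7 FPKM with PBS, so the sums overlapped between groups. The 5 member ligands summed to 24.6 and 25.3 FPKM with bleomycin and 21.9 and 21.9 FPKM with PBS. Within the 18-gene sum, Wnt2 held 7.22% and 3.71% with bleomycin and 13.1% and 18.2% with PBS. Wnt5a held 14.8% and 11.8% with bleomycin and 8.37% and 6.92% with PBS. The share of Wnt7b was 11.4% and 6.76% with bleomycin and 3.76% and 2.47% with PBS. Each of these 3 shares separated the groups, while the total did not. Such separation was not particular to them. Among the other ligands that reached the filter, the shares of Wnt2b, Wnt3a, Wnt5b, Wnt7a and Wnt10b also separated the groups. The FPKM of Wnt3a and Wnt5b themselves overlapped. The shares of Wnt4, Wnt9a and Wnt11 overlapped. The 3 shares belong to the member ligands already called and rest on the same measurements as those results.

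**Figure D3:**
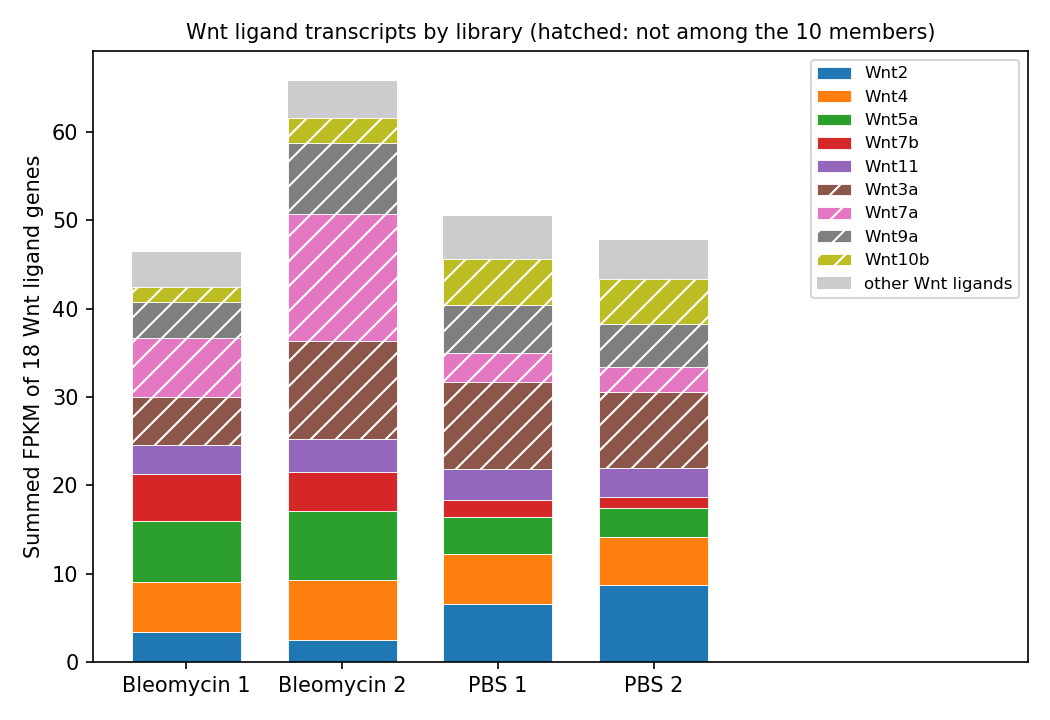
Summed FPKM (vertical axis, from 0) of the 18 measured Wnt ligand genes in each library, stacked by gene, with the 5 members at the bottom and hatching for named genes outside the set. Wnt2 is the thin bottom layer at 3.35 and 2.44 FPKM with bleomycin and a thicker one at 6.6 and 8.69 FPKM with PBS, while the whole column is tallest in bleomycin replicate 2 at 65.8 FPKM.

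The 2 targets were both lower in the bleomycin libraries without passing the test. Axin2 encodes a scaffold of the complex that destroys beta-catenin and is among the most general targets of the canonical branch. Axin2 (gene 12006, chromosome 11, 108917828 to 108950783) was at 6.13 and 6.74 FPKM with bleomycin and 7.68 and 9.36 FPKM with PBS. The groups did not overlap, though the PBS libraries differed from each other by more than the gap between the groups. Its log2 fold change was -0.35 ± 0.13, with a 95% interval of -0.69 to -0.018 (unadjusted p = 0.0425, adjusted p = 0.129 by limma). An estimated 449 and 511 fragments lay behind the bleomycin values and 556 and 682 behind the PBS values.

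Lef1 encodes a DNA-binding partner of beta-catenin, is itself induced by the pathway in many tissues, and is also expressed by T cells. Lef1 (gene 16842, chromosome 3, 131110297 to 131224357) was at 2.27 and 1.28 FPKM with bleomycin and 3.23 and 2.87 FPKM with PBS. Both bleomycin libraries were lower, and they differed from each other by more than the gap to the PBS libraries. Its log2 fold change was -0.57 ± 0.21, with a 95% interval of -1.11 to -0.021 (unadjusted p = 0.0445, adjusted p = 0.132 by limma). Leaving out bleomycin replicate 1 gave -0.83 (adjusted p = 0.00291), past the threshold, and leaving out bleomycin replicate 2 gave -0.31 (adjusted p = 0.128). In these fits 1 bleomycin library is assumed to vary like the PBS pair, and limma then called 5485 and 4351 of all genes, against 2114 with all libraries.

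Of 8 T cell markers tested 0 rose and 0 fell, with a median log2 fold change of -0.27. The 9 in the table summed to 53.8 and 16.7 FPKM with bleomycin and 37.5 and 36.3 FPKM with PBS. The bleomycin library with the lower Lef1 had the lowest T cell sum of the 4, and the one with the higher Lef1 had the highest. Over all libraries the order differed. Bleomycin replicate 1, with the highest T cell sum, had Lef1 at 2.27 FPKM, below the 3.23 and 2.87 FPKM of the PBS libraries. None of the 9 was at 0 in both libraries of a group, and their part in the Lef1 values was not tested.

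The other common targets of beta-catenin moved in both directions. Of 11 tested, without those members, 4 rose, 1 fell and 6 did not pass, with a median log2 fold change of 0.11. Wisp1, a matricellular gene also named Ccn4, rose to 7.94 ± 1.27 FPKM with bleomycin, against 1.61 ± 0.24 FPKM with PBS (log2 fold change 1.77 ± 0.15, adjusted p = 0.00765 by limma). Myc was at 11.5 ± 0.94 FPKM with bleomycin and 4.11 ± 0.12 FPKM with PBS, and its log2 fold change was 1.29 ± 0.10. Cd44, a hyaluronan receptor, and Ccnd1, a cyclin of the G1 phase, rose by 0.84 ± 0.17 and 0.59 ± 0.09. These 4 genes answer to many pathways besides Wnt. Nkd2, a feedback inhibitor of Dishevelled named outside the rule, fell by 0.45 on the log2 scale, with 5.98 ± 0.0141 FPKM with bleomycin and 8.52 ± 0.368 FPKM with PBS.

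Of the antagonists, Sfrp1 had the largest rise of all members on the FPKM + 1 scale, while by the ratio of means Dkk2 was ahead, with 6.51 against 4.83. It encodes a secreted protein with a Frizzled-like domain that binds Wnt ligands. Sfrp1 (gene 20377, chromosome 8, 23411383 to 23449632) was at 43.12 and 21.71 FPKM with bleomycin and 6.76 and 6.66 FPKM with PBS. The PBS libraries were nearly equal, while the bleomycin libraries differed from each other far beyond counting error and both lay above PBS. An estimated 3243 and 1690 fragments lay behind the bleomycin values, with 95% exact Poisson intervals of 41.7 to 44.6 FPKM in replicate 1 and 20.7 to 22.8 FPKM in replicate 2. The means were 32.4 ± 15.1 FPKM with bleomycin and 6.71 ± 0.0707 FPKM with PBS, a log2 fold change of 2.04 ± 0.32 (adjusted p = 0.0222 by limma).

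Dkk2 rose as well. It encodes a secreted protein that binds Lrp5 and Lrp6 and can block or, in some settings, raise canonical signalling. Dkk2 (gene 56811, chromosome 3, 132085266 to 132180304) was at 1.35 and 2.62 FPKM with bleomycin and 0.32 and 0.29 FPKM with PBS. Both bleomycin libraries lay above PBS, and the library with the higher Dkk2 was the one with the lower Sfrp1. An estimated 86 and 173 fragments lay behind the bleomycin values and 20 and 18 behind the PBS values. The bleomycin intervals began at 1.08 and 2.25 FPKM, above the upper bounds of 0.49 and 0.449 FPKM in the PBS libraries. The means were 1.99 ± 0.898 FPKM with bleomycin and 0.305 ± 0.0212 FPKM with PBS, 6.51 times as high.

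For a gene this low the pseudocount of 1 sets the size of the fitted change. The log2 fold change of Dkk2 was 1.16 ± 0.25 (adjusted p = 0.0418 by limma) on the FPKM + 1 scale and 2.29 on the FPKM + 0.1 scale. The call was lost with quantile normalization (adjusted p = 0.0522) and without the filter on low values (adjusted p = 0.067). Over all alternatives its adjusted p ran from 0.000254 to 0.276.

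Sfrp2 did not pass. It is a relative of Sfrp1 that also binds Wnt ligands. Sfrp2 (gene 20319, chromosome 3, 83765750 to 83774314) was at 4.29 and 7.49 FPKM with bleomycin and 8.48 and 5.43 FPKM with PBS. The groups overlapped, and replicates of each group differed beyond counting error. Its log2 fold change was -0.22, with a 95% interval of -1.01 to 0.57 (adjusted p = 0.638 by limma), and it changed sign when bleomycin replicate 1 or PBS replicate 1 was left out, to 0.12 and 0.0597.

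The 3 antagonists together summed to 48.8 and 31.8 FPKM with bleomycin and 15.6 and 12.4 FPKM with PBS. Sfrp1 made up 88.4% and 68.2% of that sum with bleomycin and 43.4% and 53.8% with PBS. Among 13 genes of secreted Wnt antagonists 6 reached the filter, of which 3 rose, 0 fell and 3 did not pass. The third that rose was Dkk3, a more distant relative of Dkk2, at 36.6 ± 1.85 FPKM with bleomycin and 27.5 ± 0.445 FPKM with PBS (log2 fold change 0.40 ± 0.08, adjusted p = 0.0387 by limma). Without the members, 1 of 3 antagonists tested rose and 0 fell.

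Markers of activated fibroblasts were higher in the libraries where Wnt5a, Sfrp1 and Dkk2 were higher. Of 7 tested 5 rose and 0 fell, with a median log2 fold change of 1.10, and the 8 in the table summed to 1087 and 1246 FPKM with bleomycin and 544 and 501 FPKM with PBS. None was at 0 in both libraries of a group. Postn, an abundant one of them, did not pass, at 191 ± 15.5 FPKM with bleomycin and 203 ± 11.6 FPKM with PBS. Within bleomycin the sum was higher in replicate 2, where Sfrp1 was lower and Wnt5a and Dkk2 were higher. Macrophage markers were also higher, with 3 of 6 rising and 0 falling (median log2 fold change 0.92). Of 6 smooth muscle markers 1 rose and 0 fell, and of 6 mesothelial markers 0 rose and 0 fell. The part of these cell types in the results was not tested.

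The order of the members by mean FPKM differed between the groups. With bleomycin it ran Sfrp1, Wnt5a, Axin2, Wnt4, Sfrp2, Wnt7b, Wnt11, Wnt2, Dkk2 and Lef1, and with PBS it ran Axin2, Wnt2, Sfrp2, Sfrp1, Wnt4, Wnt5a, Wnt11, Lef1, Wnt7b and Dkk2. With bleomycin only the steps from Sfrp1 to Wnt5a, from Wnt5a to Axin2 and from Wnt7b to Wnt11 exceeded the spread between libraries. With PBS the ranges of Axin2, Wnt2, Sfrp2 and Sfrp1 ran into one another, as did those of Wnt5a and Wnt11, and the other neighbours lay apart. Apart from Sfrp1, the members stayed below 10 FPKM in every library.

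The rest of the pathway was read from lists of receptors, secretion factors and intracellular components. Over 58 tested genes of all lists, without the members, 8 rose, 6 fell and 44 did not pass, with a median log2 fold change of 0.024. Rescaling to TPM, which also lets more low genes past the filter, gave 11 rises and 3 falls among 64. All genes moved the same way with it, to 1495 rises and 916 falls among 13912. Without rescaling they had 1116 rises and 998 falls among 12986. In either direction 14 of 58 were called, and of all genes tested 16.3%. The lists too were chosen with earlier results of these data known, so these shares do not test for an excess.

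Of 15 receptors and co-receptors 3 rose and 2 fell. Fzd1, a Frizzled receptor, was at 29 ± 2.81 FPKM with bleomycin and 14.4 ± 1.45 FPKM with PBS (log2 fold change 0.96 ± 0.12, adjusted p = 0.0133 by limma). Ror1 and Ror2, which are among the receptors of Wnt5a, rose to 2.83 ± 0.099 and 3.11 ± 0.0566 FPKM with bleomycin. With PBS they were at 1.3 ± 0.0424 and 1.48 ± 0.0707 FPKM. Their log2 fold changes were 0.74 ± 0.12 and 0.73 ± 0.12. Fzd4, a Frizzled receptor known for its role in vessels, fell to 16.4 ± 0.771 FPKM with bleomycin, against 30.5 ± 0.735 FPKM with PBS (-0.86 ± 0.08, adjusted p = 0.00943 by limma). The co-receptor gene Lrp6, named outside the rule, fell by 0.39 on the log2 scale (adjusted p = 0.0479). Endothelial markers were lower in the same libraries, with 0 of 6 higher and 2 lower, and their part in the Fzd4 result was not tested.

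Few genes of the intracellular parts of the pathway passed. Of 10 genes of the destruction complex and beta-catenin 0 rose and 0 fell by limma at an adjusted p under 0.05. Ctnnb1, which encodes beta-catenin, was at 268 ± 4.5 FPKM with bleomycin and 253 ± 0.354 FPKM with PBS, and the kinase gene Csnk1a1 at 75.6 ± 8.46 FPKM with bleomycin and 67.5 ± 3.75 FPKM with PBS. None of the 3 TCF factors other than Lef1 passed. Tcf7 was at 16 ± 3.16 FPKM with bleomycin and 16.2 ± 0.827 FPKM with PBS, and Tcf7l1 at 15.9 ± 1.14 FPKM with bleomycin and 13.8 ± 1.97 FPKM with PBS. The planar cell polarity genes Prickle1 and Prickle2 fell, by 1.28 and 0.46 on the log2 scale, while the other 6 tested did not pass. Prickle1 was at 12.9 ± 5.33 FPKM with bleomycin and 31.6 ± 0.962 FPKM with PBS.

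Genes that release Wnt ligands or tune the receptors did not pass. Wls, which carries Wnt proteins to the cell surface, was at 97.2 ± 18.9 FPKM with bleomycin and 69.3 ± 2.26 FPKM with PBS (adjusted p = 0.101 by limma). Porcn, which attaches their lipid, was at 20.5 ± 0.778 FPKM with bleomycin and 19.3 ± 1.4 FPKM with PBS. Rspo1, an R-spondin that raises Wnt signalling, was at 7.34 ± 2.46 FPKM with bleomycin and 14.1 ± 2.7 FPKM with PBS (adjusted p = 0.0783). Rnf43, a ligase that removes Frizzled receptors, was at 3.75 ± 0.304 FPKM with bleomycin and 5.47 ± 0.276 FPKM with PBS (adjusted p = 0.0603).

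**Figure D4:**
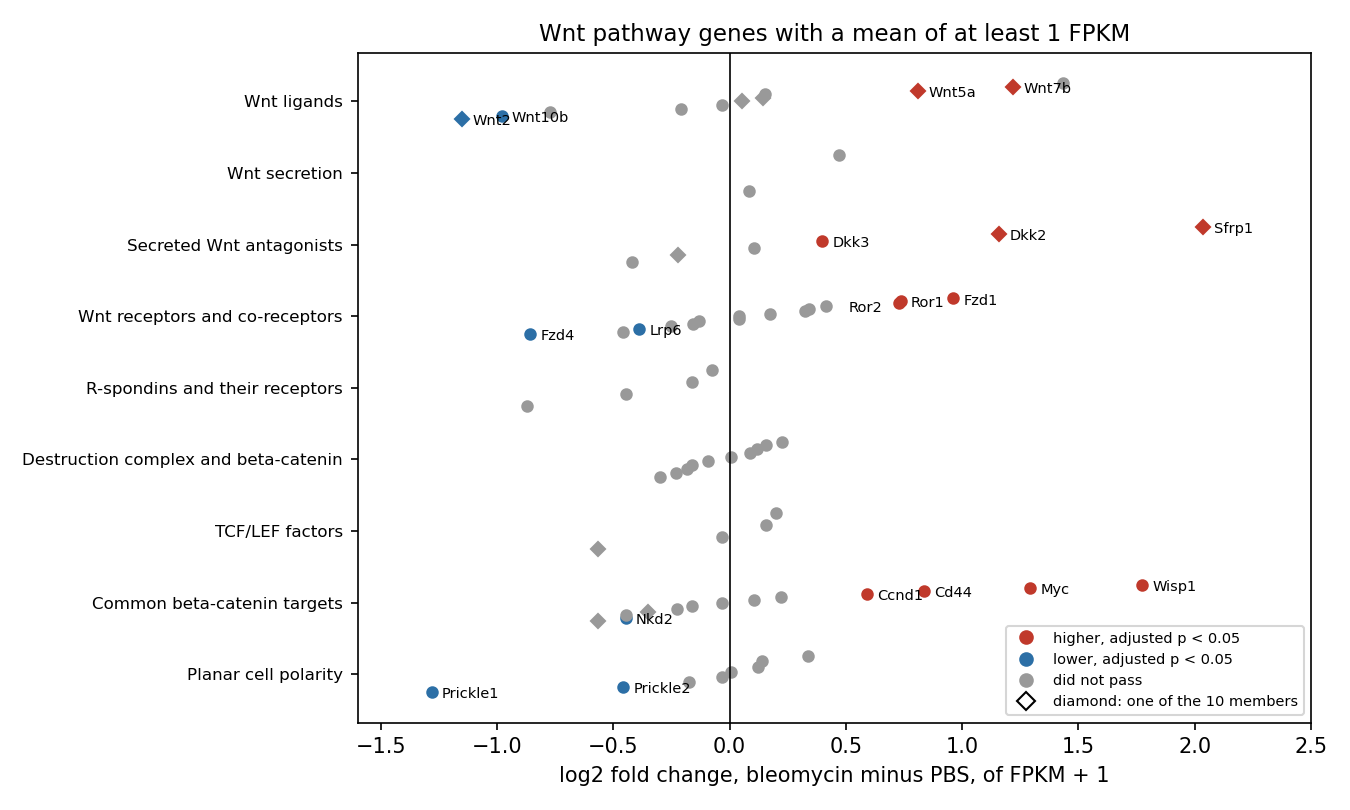
Log2 fold change of FPKM + 1, bleomycin minus PBS (horizontal axis), of the Wnt pathway genes that average 1 FPKM or more, by list; points are genes, diamonds are the 10 members, and colour marks the limma call. Of the 10 genes of the destruction complex and beta-catenin none passed, and Sfrp1 at 2.04 and Wisp1 at 1.77 lie farthest to the right.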

How the data were processed

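RNA of lung tissue from 2 bleomycin and 2 PBS libraries was analysed, grouped by sample title. The authors deposited 1 table of FPKM values with 2 decimals, per the file headers. The submitters' processing notes list Bowtie2 and HISAT with the builds mm10 and GRCm38. Neither the role nor the version of each, nor the tool that computed FPKM, is given in the sources used here.

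Of 17692 rows 1 without a name was left out (at most 0.000896% of a library's FPKM). A further 27 names had the form of dates and were restored where one of their RefSeq accessions matched a gene. Depth is the value at which most low FPKM (0.03 to 0.3) of genes with 1 transcript of 300 to 1000 bases came out within 0.15 of a whole fragment, 75% to 78.1% of values against a median of 23.3% to 25.7% over other depths. Fragment estimates are given for the 6 members with 1 transcript, use annotated length from GENCODE M21 and were not used in a test.

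The test was limma 3.58.1 (R 4.3.3, eBayes with trend) of log2(FPKM + 1) over the 12986 genes whose 4 libraries averaged 1 FPKM or more, two-sided, Benjamini-Hochberg over all of them, threshold 0.05. Fold changes on this scale understate those of low genes. Gene positions and start-site windows are RefSeq's, GRCm38.p6, and all 10 members matched by symbol.

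The members and the lists were chosen with earlier results of these data known. Of each pathway list, up to 4 called genes with the largest change are named, or 1 or 2 with the highest mean where none was called. Lrp6, Nkd2, Wnt2b, Wnt3a, Wnt5b, Wnt7a, Wnt9a, Wif1, Frzb and Sp5 lie outside this and were named after their values were seen. So was the full list of common targets set beside Sp5. Alternatives were other pseudocounts, filters, scalings and variance models, the omission of each library in turn and a replicate block. Python 3.11.15, pandas 2.3.3, numpy 2.4.6 and scipy 1.17.1 served for the tables.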

Additional observations from a re-analysis of the deposited data

How the results depend on the processing

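Directions of all members other than Sfrp2 and Wnt11 held under the 14 alternatives; with single libraries left out, the log2 fold change of Wnt11 ranged from -0.021 (without bleomycin replicate 2) to 0.13, and that of Sfrp2 from -0.56 to 0.12, being above 0 without bleomycin replicate 1 and, at 0.0597, without PBS replicate 1. The members called, 5 as reported, numbered 1 without a filter and 3 of 6 tested with a filter at 5 FPKM, which leaves out Dkk2, Lef1, Wnt7b and Wnt11. Leaving out single libraries gave 0 to 6 called members, 0 to 24 called pathway genes and 0 to 5485 called genes of all. The zeros came without a PBS library, and at an unadjusted p under 0.05 limma then had 1120 genes higher and 1007 lower (PBS replicate 1 left out) or 1143 higher and 1059 lower (PBS replicate 2 left out). Of the other pathway genes, 8 were then higher and 5 lower, or 8 and 8. The replicate block called 9 other pathway genes instead of 14 and took Dkk2 to an adjusted p of 0.0511. By the labels, same-numbered libraries shared only a number, and the correlation of their deviations was 0.023. That 1 correlation cannot settle whether they shared a batch. With 18 or 20 fragments of Dkk2 in a PBS library, counting error limits its fold change. The causes of these shifts were not tested.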

Other observations

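Several Wnt genes outside the set, chosen after their values were seen, had values that a reader may want to look at again. Wnt7a, a close relative of Wnt7b, was at 6.64 and 14.33 FPKM with bleomycin and 3.25 and 2.77 FPKM with PBS, and did not pass (log2 fold change 1.43 ± 0.34, adjusted p = 0.0548 by limma). Its share of the 18-ligand sum was 14.3% and 21.8% with bleomycin and 6.43% and 5.8% with PBS. Wnt2b was lower with bleomycin, at 1.08 and 0.67 FPKM, against 2.51 and 1.89 FPKM with PBS. It did not pass either (log2 fold change -0.77 ± 0.19, adjusted p = 0.0564 by limma). The secreted antagonist Wif1 was also lower, at 1.21 and 0.98 FPKM with bleomycin and 2.24 and 1.42 FPKM with PBS (adjusted p = 0.199 by limma). Frzb, a secreted antagonist of the Sfrp family, was at 1.34 and 1.18 FPKM with bleomycin and 0.08 and 0.09 FPKM with PBS, below the filter on mean level and so not tested. Sp5, a transcription factor gene that beta-catenin commonly induces, was at 1.21 and 1.65 FPKM with bleomycin and 0.49 and 0.53 FPKM with PBS, also below the filter. Its bleomycin libraries were thus above PBS, as were those of the common targets Apcdd1, Ccnd1, Myc, Cd44 and Wisp1. Those of Axin2, Lef1, Nkd1, Nkd2, Rnf43, Znrf3 and the very low Lgr5 were below. The groups overlapped for Tcf7 and Notum.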
